A study of Mus musculus with 9 samples.

Results

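The genes described here are 10 keratins of simple and squamous epithelia, among 18193 genes measured: Krt5, Krt6a, Krt7, Krt8, Krt14, Krt15, Krt17, Krt18, Krt19 and Krt20. They were taken by their symbols in the platform annotation, with every probe set annotated to 1 of them alone, which gave 17 of 34944 single-gene probe sets. Expression was measured on 9 Affymetrix mouse arrays of SCCVII, a tumour cell line from an oral squamous cell carcinoma that arose in mice of a strain the labels write as CH3. The 3 groups held 3 arrays each. PA was the parental SCCVII line in standard culture and received no treatment in the labels. NIR was SCCVII taken back into culture from tumours that PA cells formed after injection into stroma without irradiation. IR was SCCVII taken back into culture from tumours formed after injection into stroma that had been irradiated beforehand. The labels call the IR tumours very hypoxic and the IR lines invasive and metastatic even after expansion in normoxic culture, and the NIR tumours and lines poorly so. All groups thus share 1 parental line, the irradiation was given to the host tissue and not to the cells, and lines grown out of tumours may carry host cells. The series' design text calls the samples independent, but neither it nor the labels tie each array to its own tumour, line or dish. The p-values therefore measure the spread between these samples, which may be technical.

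Keratins are intermediate filament proteins of epithelial cells. A type I keratin (here Krt14, Krt15, Krt17, Krt18, Krt19 and Krt20) pairs with a type II keratin (here Krt5, Krt6a, Krt7 and Krt8), and a chain without a partner is degraded. Krt8 and Krt18 are the first pair of the embryo and of simple, single-layered epithelia, Krt5 and Krt14 are the pair of basal cells of stratified epithelia, and Krt6a and Krt17 are induced in wounded or hyperproliferating epithelium. Carcinomas of squamous origin often hold both simple and stratified keratins.

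The deposited values are on the log2 scale after RMA, a method that corrects background, equalizes the distributions of the arrays and summarizes the probes of a probe set. The arrays were alike, with medians between 4.45 and 4.52 and maxima between 13.94 and 14.01. Since such arrays give a value to absent transcripts too, 80 probe sets of olfactory and vomeronasal receptors, genes of sensory neurons, served as a background reference. Their means over the 9 arrays had a median of 3.51, a 95th percentile of 4.72 and a highest value of 6.38, and a probe set was taken as above background in a group where the group mean exceeded the 95th percentile. Levels are not compared between probe sets, since each binds with its own efficiency. Fold changes on arrays depend on that efficiency too.

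Krt8 and Krt18 stood far above background on all arrays, and Krt18 was the member that rose in IR. The other members were near or below background. The chart of all members shows these levels.

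**Figure D1:**
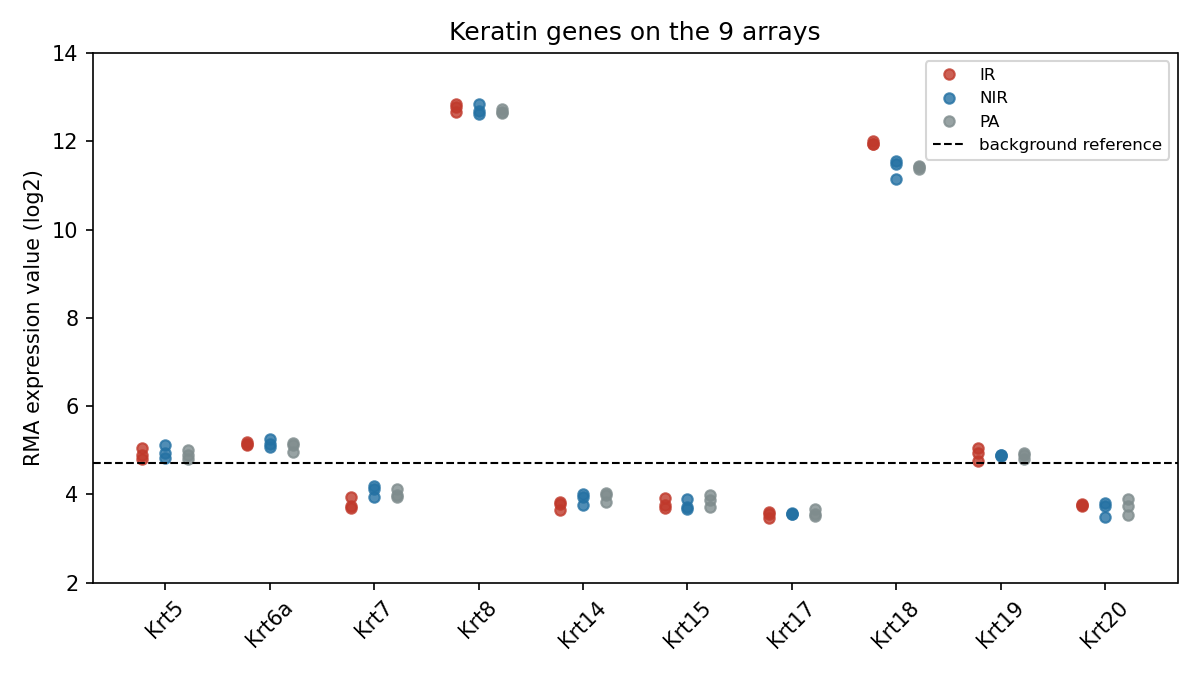
Expression value (log2, vertical axis) of the probe set with the highest mean for each keratin (horizontal axis) on the 9 arrays, 1 point an array, coloured by group (IR, NIR, PA), with the background reference of 4.72 as a dashed line. Krt8 and Krt18 lie above 11 on every array, Krt5, Krt6a and Krt19 lie just above the line, and Krt7, Krt14, Krt15, Krt17 and Krt20 lie below it.

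Krt18, the type I partner of Krt8 (Entrez Gene 16668, 1 probe set), read 11.940, 11.938 and 11.996 in IR. In NIR it read 11.15, 11.54 and 11.48, and in PA 11.43, 11.37 and 11.41. Every IR array was above every NIR and PA array, while NIR and PA overlapped, with NIR replicate 1 the lowest of the 9. The group means were 11.96 ± 0.033 for IR, 11.39 ± 0.21 for NIR and 11.41 ± 0.030 for PA (SD, n = 3). The difference between IR and NIR was 0.57 on the log2 scale (SE 0.094, 95% interval 0.36 to 0.77), a 1.48-fold rise with an adjusted p of 0.0180 (limma with Benjamini-Hochberg adjustment over all genes). Against PA the difference was 0.55 (interval 0.35 to 0.76), a 1.47-fold rise with an adjusted p of 0.0146 in the same limma fit. Between NIR and PA it was -0.015 (interval -0.22 to 0.19, limma adjusted p = 0.977). The comparisons of IR and of NIR with PA share the PA arrays. In order of level, IR was followed by PA and NIR, which did not differ beyond their spread.

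The Krt18 difference was positive in every fit that left out an array, but its call was not kept in all of them. Leaving out 1 array at a time gave log2 differences of 0.45 to 0.64 against NIR, with limma adjusted p from 0.0157 to 0.0609, and the call was lost without IR replicate 1 (0.0609), IR replicate 2 (0.0550) or IR replicate 3 (0.0534). Against PA these differences were 0.53 to 0.56, with limma adjusted p from 0.00140 to 0.0901. There the call was lost without IR replicate 1 (0.0635), IR replicate 2 (0.0610), PA replicate 1 (0.0681), PA replicate 2 (0.0901) or PA replicate 3 (0.0653). A limma fit of the IR and NIR arrays alone gave an adjusted p of 0.105.

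Krt8, the type II partner of Krt18, was measured by 3 probe sets, none of which was called. The brightest read 12.84, 12.79 and 12.65 in IR, 12.61, 12.85 and 12.69 in NIR, and 12.65, 12.64 and 12.73 in PA. These groups overlapped throughout, with means of 12.76 ± 0.095 for IR, 12.72 ± 0.12 for NIR and 12.67 ± 0.045 for PA (SD, n = 3). The difference of IR from NIR was 0.043 (95% interval -0.14 to 0.22) and from PA 0.085 (interval -0.093 to 0.26), each on the log2 scale. The other probe sets of Krt8 had IR, NIR and PA means of 12.62, 12.55 and 12.57, and of 12.49, 12.42 and 12.44. Both are of a kind that can bind several transcripts. Over the 3 probe sets, the highest upper bound of the difference between IR and NIR was 0.25, below the lower bound of 0.36 for Krt18, each as these probe sets report it. By the brightest Krt8 probe set alone the upper bound was 0.22.

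The 2 partners were also set against each other within each array, as the Krt18 value minus the Krt8 value. This difference has no meaning as a level, and its shift restates the changes of both genes on probe sets whose efficiency may differ. With the brightest Krt8 probe set it was -0.90, -0.85 and -0.66 in IR, -1.46, -1.30 and -1.21 in NIR, and -1.22, -1.27 and -1.31 in PA. The shift of IR from NIR was 0.52 and from PA 0.47, and with the other 2 Krt8 probe sets it was 0.49 and 0.50 from NIR and 0.51 and 0.50 from PA. IR did not overlap NIR or PA with any of the 3 probe sets, and each 2-sided exact permutation test gave p = 0.1, the smallest that 3 arrays against 3 allow. All these tests used the same Krt18 values, which were already apart, so they are not independent of each other or of the Krt18 call. NIR differed from PA by -0.056, 0.011 and -0.0019, with exact permutation p of 0.7, 1 and 1.

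**Figure D2:**
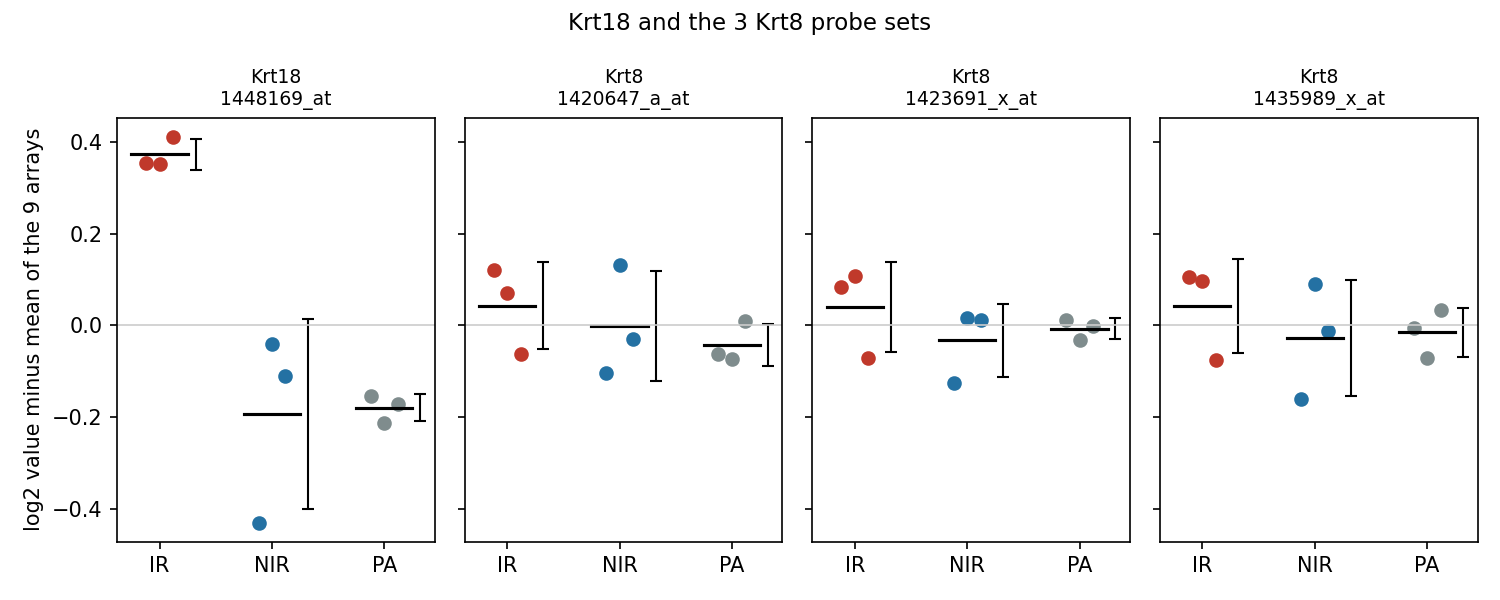
Log2 value of each array minus the mean of the 9 arrays (vertical axis, shared) for the Krt18 probe set and the 3 Krt8 probe sets, by group; points are arrays, horizontal bars group means and error bars the SD of 3 arrays. For Krt18 the IR arrays lie apart from NIR and PA, and for each Krt8 probe set the groups overlap.

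Krt8 and Krt18 are neighbours on mouse chromosome 15, where Krt18 is the type I gene at the edge of the type II keratin cluster. The windows around the start sites of both genes are shown because these partners lie side by side and are both far above background, and 1 of them was called. The sequences are RefSeq's (GRCm38.p6), from 250 bases before the start to 20 bases from it on, 5′ to 3′ on the strand of the gene. Krt8 lies on the minus strand at chr15:102004323-102004592, and Krt18 on the plus strand at chr15:102027966-102028235. Capitals mark TATAA, the core of the TATA box, and ACGTG or GCGTG, the core letters of hypoxia response elements, each on either strand.
Krt8: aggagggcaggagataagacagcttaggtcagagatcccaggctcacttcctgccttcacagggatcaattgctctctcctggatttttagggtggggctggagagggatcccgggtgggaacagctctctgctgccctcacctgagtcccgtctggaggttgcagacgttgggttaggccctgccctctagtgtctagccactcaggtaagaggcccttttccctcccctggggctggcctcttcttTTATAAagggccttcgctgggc
Krt18: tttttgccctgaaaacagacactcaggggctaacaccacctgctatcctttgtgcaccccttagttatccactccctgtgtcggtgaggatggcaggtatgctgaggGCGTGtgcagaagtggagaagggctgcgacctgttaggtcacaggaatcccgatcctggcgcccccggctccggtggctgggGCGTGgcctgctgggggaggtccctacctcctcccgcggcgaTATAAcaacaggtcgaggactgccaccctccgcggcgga
TATAA began 19 bases before the start in Krt18, and in Krt8 overlapping matches on the 2 strands began 2 bases and 1 base before it. GCGTG began 143 and 61 bases before the start in Krt18, and no hypoxia core was found in Krt8. Neither window held GGGCGG, a GC box, or TGANTCA, the AP-1 motif, on either strand. Of 32851 RefSeq windows of 300 bases, 24.9% held TATAA, 43.8% ACGTG or GCGTG, 35.7% GGGCGG and 7.81% TGANTCA. A match is a description of letters and shows no binding. RefSeq windows were given for 6 of the 10 members, and those for Krt5, Krt7, Krt14 and Krt20 are not shown because those genes lie outside this pair. Of the 6 windows, 2 held a hypoxia core: that of Krt18 and that of Krt14, where it began 61 bases before the start. Krt14 was not called in any comparison, but it lay below the background reference on all its probe sets, where a change may go undetected. Whether these letters play a part in either gene was not tested.

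The genes next to this pair on the chromosome were not called in any comparison. In RefSeq order these were Krt76, Krt4, Krt79 and Krt78 on the Krt8 side, and Eif4b, Tns2, Spryd3 and Igfbp6 on the Krt18 side. Eif4b, a translation initiation factor and the measured gene next to Krt18, averaged 11.35 in IR, 11.31 in NIR and 11.19 in PA. Igfbp6, a secreted binding protein of insulin-like growth factors, averaged 11.96, 11.91 and 11.96.

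Among the other type II members, Krt5, the basal keratin, read 5.06, 4.90 and 4.80 in IR, 4.95, 4.83 and 5.11 in NIR, and 4.88, 4.80 and 5.00 in PA. All these arrays lay just above the reference, and the groups overlapped. Krt6a, the wound-induced keratin, averaged 5.14 in IR, 5.16 in NIR and 5.09 in PA by its brightest probe set, and its other 2 probe sets lay below the reference in every group, so they disagree on whether the gene is above background. Krt7, a keratin of simple and glandular epithelium, lay below the reference in all groups. It read 3.74, 3.70 and 3.95 in IR, 3.95, 4.11 and 4.18 in NIR, and 3.95, 4.12 and 3.99 in PA, so the IR arrays were lowest but reached the lowest NIR and PA arrays. Its log2 difference was -0.29 against NIR (95% interval -0.49 to -0.087) and -0.22 against PA, with limma adjusted p of 0.141 and 0.507.

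Among the other type I members, Krt19, a keratin of simple and ductal epithelia that also marks basal-like progenitors, read 5.06, 4.95 and 4.76 in IR, 4.90, 4.88 and 4.90 in NIR, and 4.81, 4.90 and 4.94 in PA. These values were just above the reference, and the groups overlapped. Krt14, the partner of Krt5, lay below the reference on all 3 of its probe sets, with group means of 3.75, 3.91 and 3.95 in IR, NIR and PA on the brightest. Krt15, a keratin of basal and hair follicle stem cells, averaged 3.79, 3.76 and 3.86, and Krt20, a keratin of intestinal and urothelial surface cells, 3.76, 3.68 and 3.72. Krt17, a partner of Krt6a, averaged 3.54, 3.57 and 3.58 on the brighter of its probe sets. A further probe set annotated to both Krt17 and Krt14 was not tested as a member, and its values of 4.59 to 4.84 lay close to the reference on all arrays. Krt5, Krt6a and Krt19 lay above the reference but below its brightest receptor, so their signal is not clearly that of a transcript.

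Counted by the 0.05 threshold on limma's adjusted p, 1 of 10 members was higher and 0 were lower in IR than in NIR, beside 1.65% of all genes called in either direction and 0.786% called higher in IR. Against PA, 1 of 10 was higher in IR, beside 1.06% of genes in either direction and 0.297% higher in IR. Between NIR and PA, 0 of 10 were called by limma, beside 1.3% of genes, and 0 members had an unadjusted p under 0.05. By probe sets, 1, 1 and 0 of 17 were called, beside 0.881%, 0.69% and 0.836% of all single-gene probe sets. The called member was Krt18 each time, and a single call is the smallest share above 0 that 10 genes can show. The median log2 change of the members was 0.0049 for IR against NIR, 0.031 for IR against PA and 0.0014 for NIR against PA, beside medians of 0.0014, 0.0043 and 0.0046 over all genes. The other 9 members ranged from -0.29 to 0.081, from -0.22 to 0.085 and from -0.10 to 0.075, with limma adjusted p from 0.141 up. Before adjustment, Krt7 passed 0.05 against NIR, and Krt7 and Krt14 against PA.

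**Figure D3:**
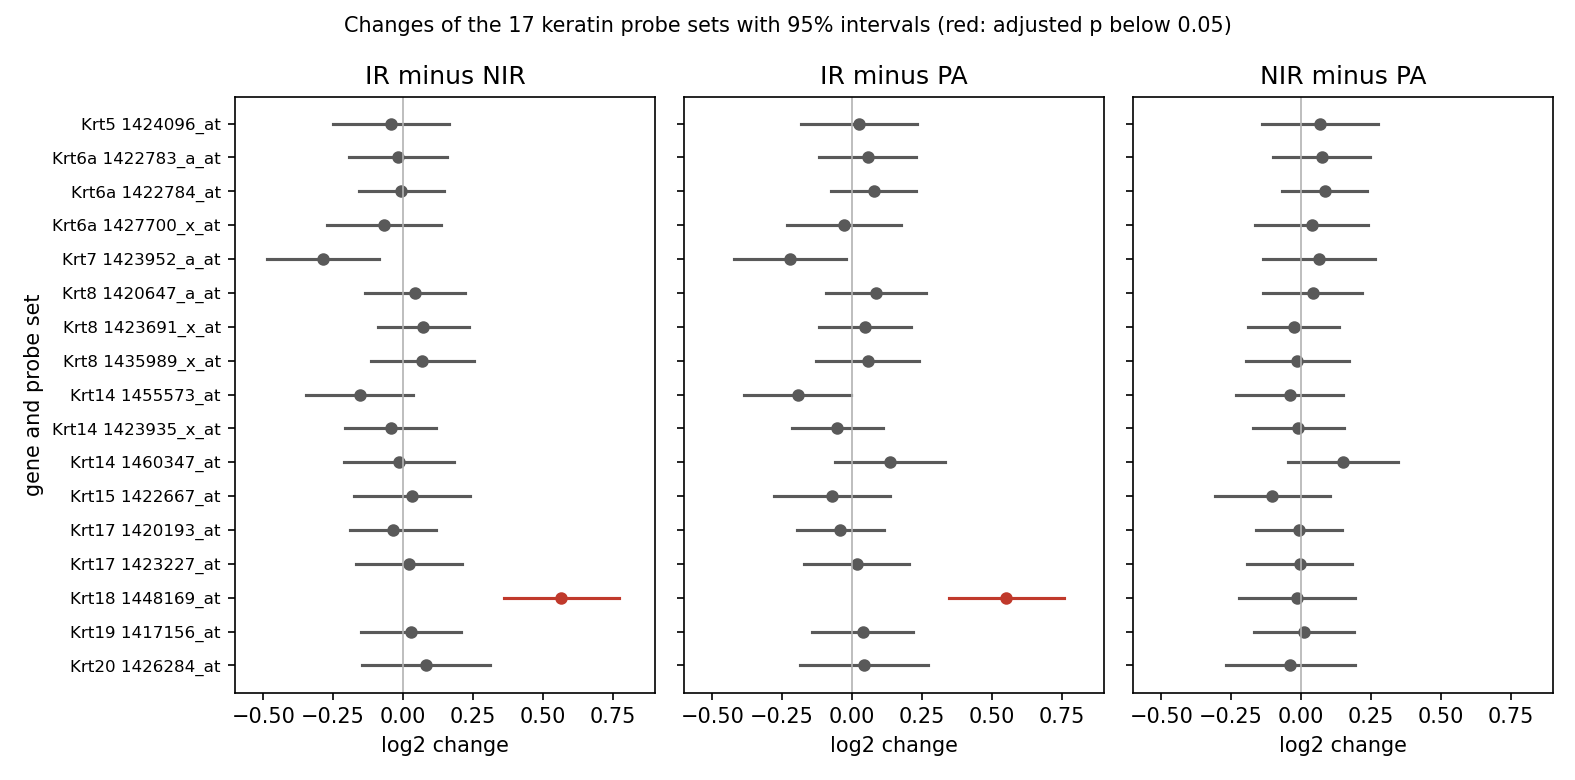
Log2 change (horizontal axes) of the 17 keratin probe sets (vertical axis, gene and probe set) for IR minus NIR, IR minus PA and NIR minus PA; points are limma estimates from 3 arrays a group, bars 95% intervals, and red marks an adjusted p below 0.05 over all probe sets. Krt18 is red in both comparisons of IR, at 0.57 and 0.55, and no probe set is red for NIR minus PA.

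The rest of the keratin family gave no further call. Of 48 keratin genes measured, members included, 17 were above the reference in all groups, 3 in some and 28 in none. Krt42 and Krt80, chosen after their values were seen as the brightest outside the members, averaged 7.87 and 7.52 in IR, 7.86 and 7.45 in NIR, and 7.80 and 7.38 in PA. Krt10, the type I keratin of suprabasal epidermis, was not above the reference in any group and had a log2 difference of -0.31 in IR against PA (limma adjusted p = 0.201) and -0.20 in NIR against PA (0.378). Of the other type I keratins, Krt26 and Krt34 had the lowest p for IR against NIR, at -0.15 and 0.12, and Krt34 was 0.20 in IR against PA and Krt35 0.16 in NIR against PA. Of the other type II keratins, Krt71 and Krt78 were -0.17 and -0.15 in IR against NIR, Krt4 and Krt81 were 0.17 and 0.12 in IR against PA, and Krt77 and Krt4 were 0.21 and 0.23 in NIR against PA. Of the 18 other type I and 18 other type II keratins measured, 0 were called by limma in any comparison. The median changes for IR against NIR were 0.0089 and -0.058.

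Other intermediate filament genes, 17 of 17 measured and 11 above the reference in all groups, had 0 calls. Vim, encoding vimentin, the filament of mesenchymal cells, averaged 13.43 in IR, 13.47 in NIR and 13.43 in PA. Lmna, encoding the nuclear lamins A and C, averaged 10.77, 11.05 and 10.86, and Lmnb2, encoding lamin B2, 7.22, 7.38 and 7.27. Nes, encoding nestin, averaged 7.77, 7.94 and 7.52. Nefh and Prph, filament genes of neurons, averaged 3.43, 3.56 and 3.62, and 5.82, 5.68 and 5.87. None of these passed the test.

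Genes of desmosomes, hemidesmosomes and cytolinkers tie keratin filaments to junctions, and 24 of 25 were measured. In IR against NIR 1 was higher, in the other comparisons 0 were called, and the median log2 change was 0.040 for IR against NIR. The called gene was Pkp2, which encodes plakophilin 2, a desmosomal plaque protein. It read 7.83, 7.77 and 8.28 in IR, 7.060, 7.003 and 7.522 in NIR, and 7.80, 7.80 and 7.90 in PA. IR lay above NIR without overlap, and PA lay among the IR values. The difference of IR from NIR was 0.77 (limma adjusted p = 0.0336), that of IR from PA 0.13 (0.894) and that of NIR from PA -0.64 (0.0710). The call was lost in 8 of 9 fits that left out 1 array (each but NIR replicate 3), with limma adjusted p up to 0.0937. The probe set is of a kind that can bind several transcripts, and without such probe sets the call was lost as well; the next Pkp2 probe set had a difference of 0.58 (limma adjusted p = 0.0894 over all probe sets). The call was also lost with the mean of the 4 Pkp2 probe sets, where the difference was 0.33 (limma adjusted p = 0.118), and with the compared groups alone (0.143). The integrin genes Itga6 and Itgb4, receptors of the hemidesmosome, were 0.40 and 0.33 higher in IR than in NIR without passing the test (limma adjusted p = 0.205 and 0.266). In IR against PA the lowest p belonged to Macf1 and Eppk1, encoding cytolinkers, at -0.18 and 0.35 (limma adjusted p = 0.561 and 0.609), and Tchp, encoding a keratin-binding protein, was 0.16 in NIR against PA (0.440). Dsp, encoding desmoplakin, which anchors keratins to the desmosome, was below the reference in all groups, at 3.24, 3.31 and 3.30.

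Squamous and epithelial transcription factors had 0 of 24 measured genes called. Trp63, the master regulator of stratified epithelium, was below the reference in all groups, at 4.23 in IR, 4.29 in NIR and 4.26 in PA. Pitx1, a homeobox factor, averaged 5.92, 6.23 and 5.98, with a limma adjusted p of 0.122 for IR against NIR. Tfap2c, an AP-2 factor, averaged 6.84, 6.47 and 6.77 (limma adjusted p = 0.245 for IR against NIR). Foxa2 and Foxa1, forkhead factors of endodermal epithelia, were below the reference, with differences of -0.29 and 0.13 in IR against PA. Klf5, a factor of basal epithelial cells, averaged 6.78, 6.72 and 6.73. Cornification genes, which build the outer layers of squamous epithelium, had 0 of 28 called. Among these Lypd3, a surface protein of suprabasal cells, was -0.63 in IR against NIR (limma adjusted p = 0.0702) and above the reference in NIR alone. Sbsn, suprabasin, was -0.43 in the same comparison (limma adjusted p = 0.283), with NIR replicate 1 at 5.95 beside 5.27 and 4.96 in NIR. In IR against PA, Calml3 and Tgm3 had the lowest p, at -0.12 and 0.16 (limma adjusted p = 0.696 and 0.727). With array weights or a replicate block 1 cornification gene was called in IR against NIR.

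Epithelial adhesion and polarity genes also had 0 of 23 called, with 1 called for IR against NIR under the filter on signal and under quantile normalization, and 1 in each comparison with PA under array weights. Cdh1, encoding E-cadherin, lay below the reference at 3.29, 3.30 and 3.27 in IR, NIR and PA, and Epcam, an epithelial adhesion molecule, above it at 6.12, 6.08 and 5.95. Tjp1, a tight junction scaffold, was 0.37 higher in IR than in NIR without passing the test (limma adjusted p = 0.0626), and the protease Prss8 was -0.25 (0.209). Cldn1, a tight junction claudin, was 0.56 higher in both IR and NIR than in PA without passing (limma adjusted p = 0.159 and 0.111), and Cldn7 was -0.16 in IR against PA (0.502). Of 16 listed epithelial markers, 15 were measured and 7 were above the reference in all groups: Krt5, Krt6a, Krt8, Krt18, Krt19, Pkp1 and Epcam. Of these 7, Krt8 and Krt18 exceeded the brightest receptor, at 6.38, and the rest lay below it in every group, so their signal is not clearly that of a transcript. The 8 below it in all groups were Krt7, Krt14, Krt15, Krt17, Krt20, Trp63, Dsp and Cdh1. Outside that set, the longer lists held further genes above the reference in all groups, among them Tfap2a (7.65, 7.53 and 7.64 in IR, NIR and PA), Tfap2c, Grhl2, Pkp2, Pkp3, Crb3 and Sfn. Tfap2a and the genes named with it also exceeded the brightest receptor in all groups, Sfn by little (6.49, 6.39 and 6.47). Klf4, Tjp1 and Itga6 of these lists did so too. By list, the genes above the reference in all groups were 15 of 24 for desmosomes, hemidesmosomes and cytolinkers and 9 of 24 for transcription factors. For cornification they were 11 of 28, and for adhesion and polarity 9 of 23. Passing the reference was common, since the filter on signal, with a higher cutoff of 4.91, kept 10607 of 18193 genes. These counts by themselves thus do not bear out the epithelial label. Krt8 and Krt18 were far above background, while Trp63, Krt14, Dsp and Cdh1 were not above it.

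**Figure D4:**
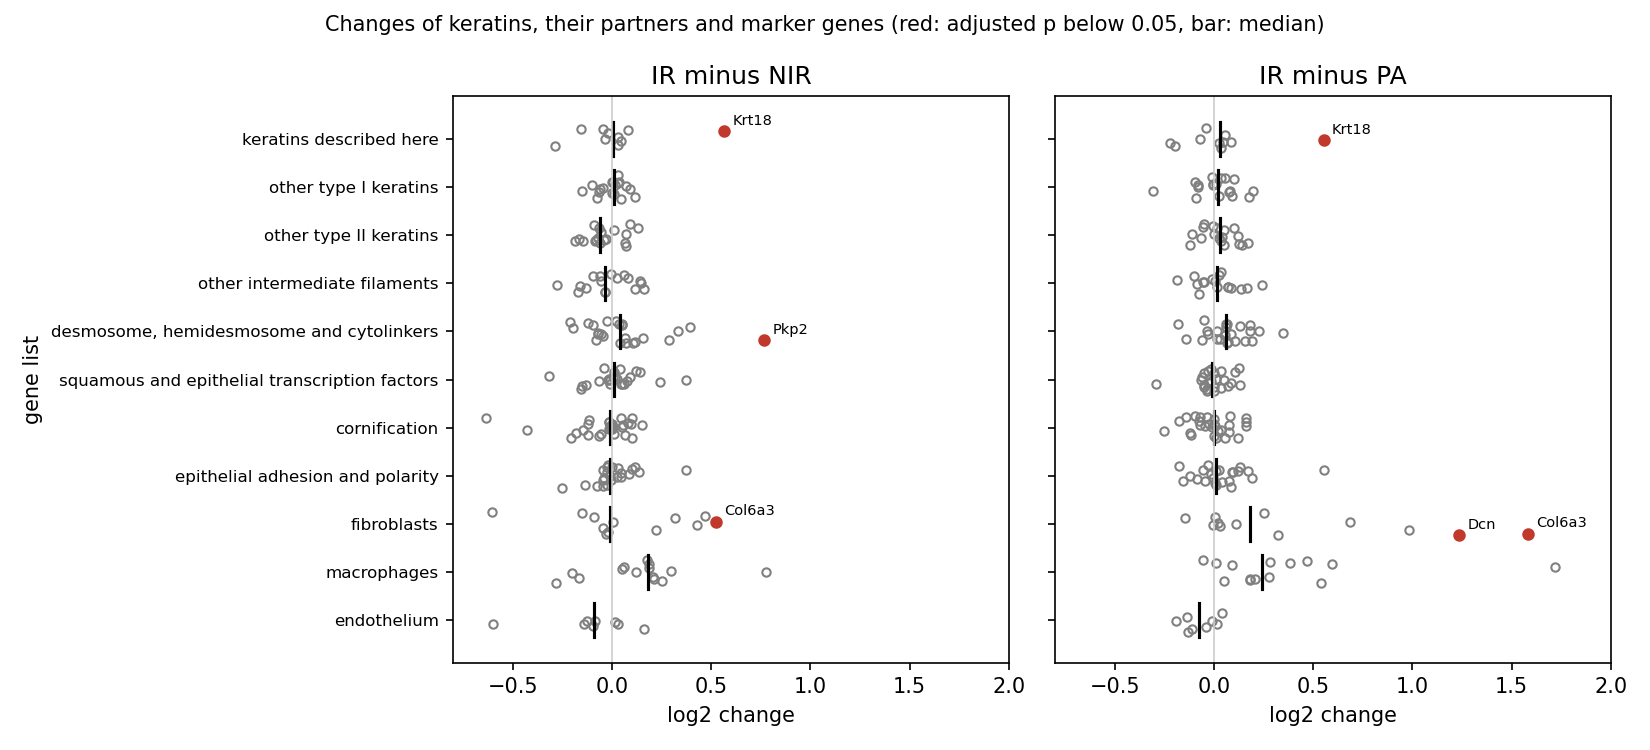
Log2 change (horizontal axes) of each measured gene of 11 lists (vertical axis) for IR minus NIR and IR minus PA, 1 circle a gene, with the list median as a black bar and called genes in red with their symbols; vertical position within a list is random. Krt18 is called in both panels, Pkp2 and Col6a3 in IR minus NIR, and Col6a3 and Dcn in IR minus PA.

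Markers of host cells were measured beside Krt18, since the derived lines came from tumours. In bulk samples, a different share of cells of a type and a different RNA amount per cell cannot be told apart. Of 12 fibroblast genes, 9 were above the reference in all groups, and Thy1, Fap and Postn were below it in all groups. The mean level of the 12 ranged from 7.11 to 7.20 in IR, 6.90 to 7.24 in NIR and 6.67 to 6.79 in PA. In IR against PA Col6a3 and Dcn rose by 1.58 and 1.24 (limma adjusted p = 5.84e-05 and 0.00265), and in NIR against PA Col6a3, Lum and Dcn by 1.06, 1.29 and 0.81 (0.000363, 0.0241 and 0.0391). In IR against NIR Col6a3 was 0.52 higher (limma adjusted p = 0.0440), a call lost in 8 of 9 fits without 1 array (each but NIR replicate 2). The NIR calls of Dcn and Lum were lost in 7 and 5 of those fits. Col6a3 and Dcn encode matrix proteins, and Pdgfra, a receptor of fibroblasts, averaged 9.17, 9.32 and 9.15 in IR, NIR and PA, so transcripts of this list were far above the reference in PA as well.

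Of 14 macrophage genes, 4 were above the reference in all groups, with mean levels of 4.74 to 5.19 in IR, 4.68 to 4.80 in NIR and 4.496 to 4.628 in PA. IR replicate 3 had the value of 5.19, and the other IR arrays 4.74 and 4.75. Krt18 was also highest on IR replicate 3, at 11.996 beside 11.940 and 11.938. Without that array the Krt18 differences were 0.55 from NIR and 0.53 from PA (limma adjusted p = 0.0534 and 0.0486). Lyz2, encoding lysozyme of macrophages and other myeloid cells, read 5.71, 5.78 and 8.25 in IR, 5.60, 6.32 and 5.50 in NIR, and 4.63, 4.95 and 5.02 in PA, so every IR and NIR array was above every PA array and IR replicate 3 was far above the rest. Its log2 differences were 0.77 for IR against NIR, 1.72 for IR against PA and 0.94 for NIR against PA, none of which passed (limma adjusted p = 0.531, 0.251 and 0.520). Cd68, a lysosomal protein of macrophages, read 5.83 on IR replicate 3 and averaged 5.12 in IR, 5.06 in NIR and 4.52 in PA. Tyrobp, a signalling adaptor of myeloid cells, averaged 4.99, 4.81 and 4.45, and its difference of 0.54 between IR and PA did not pass (limma adjusted p = 0.152). C1qb and C1qc, chains of complement C1q, were 0.30 and 0.25 higher in IR than in NIR without passing (limma adjusted p = 0.169 and 0.264), both below the reference. Mrc1, a macrophage mannose receptor, was the called gene, higher in NIR than in PA by 0.75 (limma adjusted p = 0.0156), a call lost without NIR replicate 1, PA replicate 1 or PA replicate 3. Of the genes that define these cells, Ptprc of leukocytes and Adgre1 and Itgam of macrophages were below the reference in all groups. Fcgr3, C1qa, C1qb and C1qc were below it in all groups as well. Lyz2, Cd14, Csf1r and Fcer1g were above it in all groups, and Cd68, Mrc1 and Tyrobp in IR and NIR but not in PA. Of those above it, Cd14 exceeded the brightest receptor, at 6.38, in all groups, and Lyz2 only on IR replicate 3. Csf1r, Fcer1g, Cd68, Mrc1 and Tyrobp lay below the brightest receptor in every group, so their signal is not clearly that of a transcript. Of 8 endothelial genes, 3 were above it in all groups, the mean ranged from 4.22 to 4.27 in IR, 4.30 to 4.44 in NIR and 4.28 to 4.36 in PA, and 0 were called. Cdh5, encoding VE-cadherin, the adhesion molecule of endothelial junctions, was above the reference and averaged 5.94, 6.54 and 5.90 for IR, NIR and PA. It differed by -0.60 between IR and NIR and by 0.64 between NIR and PA without passing (limma adjusted p = 0.0682 and 0.0631). With array weights the count of endothelial genes called went from 0 to 1 in both comparisons. Kdr and Esam were also above the reference but below the brightest receptor, which Cdh5 exceeded in NIR alone. Pecam1, Tek, Tie1, Emcn and Vwf were below the reference in all groups. The part of host cells in the Krt18 difference was not tested.

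The 5 genes whose pattern was most like that of Krt18, among 18192 others, were Pla2g7, Pdia4, Skap2, Gm15867 and Snx24. Likeness was the root mean square difference of the 9 values after each gene was centred on its mean, which was 0.094, 0.11, 0.11, 0.11 and 0.11 on the log2 scale, beside a root mean square of 0.28 for Krt18 about its own mean. Skap2, a Src kinase adaptor, was higher in IR by 0.41 against both NIR and PA (limma adjusted p = 0.0143 and 0.00713), calls lost without IR replicate 1 and PA replicate 1 respectively. Snx24, a sorting nexin, was higher by 0.61 and 0.74 (limma adjusted p = 0.00995 and 0.00130), and both calls held when any 1 array was left out. Pdia4, a protein disulfide isomerase of the endoplasmic reticulum, passed against PA at 0.49 (limma adjusted p = 0.0217), a call lost in 5 of 9 fits without 1 array, and not against NIR at 0.38 (0.0579). Pla2g7, a secreted phospholipase, was 0.43 and 0.44 higher without passing (limma adjusted p = 0.0597 and 0.0759), and Gm15867, a predicted gene, was below the background reference in all groups. This likeness over 9 arrays is a description. Since the genes were picked by it, their rise in IR follows from the choice, and their p-values are no separate test.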

How the data were processed

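Total RNA of 9 samples was hybridized to Affymetrix mouse arrays, per the labels' protocols. The deposited log2 values were made by the authors with RMA, per the submitters' processing notes, and its version and settings are not given in the sources used here. No further scaling was applied. Of 45100 probe sets, 64 controls, 932 annotated to several genes and 9160 without a gene were left out of the tests. Gene names come from the platform annotation and were updated through RefSeq by Entrez Gene identifier (34740 probe sets matched, 204 did not). Each gene was represented by its brightest probe set, judged by the mean of the 9 arrays, a choice among several for 9010 genes, and all probe sets were also fitted.

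The comparisons came from a single fit in limma (version 3.58.1, R version 4.3.3; group means by lmFit, moderation by eBayes, all 9 arrays, 2-sided, 6 residual and 5.48 prior degrees of freedom), with Benjamini-Hochberg adjustment over all genes and a threshold of 0.05. The number of arrays limits the precision. On 10 of 17 member probe sets, and on 58.5% of all single-gene probe sets, 2 or more arrays had an identical value to 4 decimals, which lowers an SD. Krt18 had no such repeat.

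Same-numbered arrays of different groups correlated at -0.20 to 0.097 in their deviations from the group means, 0 of 9 pairs above 0.1, so the numbers were not used to pair arrays. Differently numbered arrays reached 0.25 (NIR replicate 2 with PA replicate 3). Members and lists were chosen with earlier results of these data known. Named genes were all members, called genes of each list, otherwise those with the lowest p, and the 5 genes most like the called member. Markers, chromosome neighbours and further genes of the lists were also named, some after their values were seen. Plots were made in Python 3.11.15 using matplotlib 3.10.9.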

Additional observations from a re-analysis of the deposited data

How the results depend on the processing

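The alternatives averaged all probe sets of a gene, left out probe sets that bind several transcripts, filtered on signal, centred or quantile normalized the arrays, used trend and robust settings or array weights, fitted a pair of groups alone, added a replicate block, lowered the threshold to 0.01, or left out 1 array. The counts of members and of member probe sets called were 0 for IR against NIR with the compared groups alone, and 0 for IR against NIR and against PA at an adjusted p below 0.01. When 1 array was left out they ranged from 0 to 1 in both comparisons, and for NIR against PA all alternatives gave 0. With the replicate block the count stayed at 1 for IR against NIR and 1 for IR against PA (Krt18, limma adjusted p = 0.0315 and 0.0302). These correlations gave no sign that the replicate numbers pair the arrays, and 1 of 9 arrays correlated best with its own number. The labels give no pairing to check this against. Over the 10 alternatives that kept all arrays, the log2 difference of Krt18 was 0.56 to 0.57 against NIR (limma adjusted p = 0.00541 to 0.105) and 0.53 to 0.55 against PA (0.00141 to 0.0302). No direction of a called value reversed. The other 9 members gave 495 values under the alternatives, of which 0 were called. The counts of called genes in the 10 related lists gave 570 values, of which 55 moved by more than 1.5 times. They included 8 of 9 fits without 1 array for the desmosome list in IR against NIR, the fibroblast count for NIR against PA, which went from 3 to 1 with the replicate block, and cornification (IR against NIR) and desmosome genes (NIR against PA), which went from 0 to 1 with it. The other keratin and intermediate filament lists stayed at 0 in all alternatives. The filter on signal kept 10607 genes and 4 members, Krt5, Krt6a, Krt8 and Krt18. Members near background can hide changes that these arrays cannot detect.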
